A study of Mus musculus with 6 samples.

Results

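The 37 genes described here are Trp53, which encodes the transcription factor p53, and 36 genes known as its targets, regulators or effectors, out of 29018 genes in the deposited table. They were read from the table by symbol, each symbol having a single row, and some of them were picked because they differed between the genotypes in these same libraries. For that reason the KO against WT values of the 37 are a description, and no p-value is given for them. The RNA sequenced was that of bone-forming cells, osteoblasts, which had been isolated from neonatal mouse calvaria, the bones of the skull vault, and induced to differentiate. There were 3 libraries of NDR1 KO cells and 3 of WT cells. NDR1 is a serine/threonine kinase encoded by Stk38. The strain, the sex and the design of the KO allele were not given in the sources used here, nor whether the replicates were separate animals or cultures, so the spread between libraries may be technical.

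p53 is a sequence-specific activator that is held at a low level by the ubiquitin ligase Mdm2 and is released when DNA is damaged or cells are stressed. It then raises transcription of genes that stop the cell cycle, repair DNA or start cell death, and also of Mdm2, which closes a feedback loop. Its protein is set mainly by stability, so the level of Trp53 mRNA says little of its activity. In mouse bone, p53 is known as a brake on osteoblast differentiation, and loss of Mdm2 in osteoblasts impairs bone formation. Neither p53 protein nor its binding to DNA was measured in these libraries.

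Counts summed to between 61461870 and 76159034 per KO library and between 66308530 and 68395991 per WT library. Levels are given as CPM, counts scaled by library total and TMM factor, and, where genes are compared with each other, as FPKM, which also corrects for transcript length. Changes are log2 KO over WT ± SE. A gene was called when its p in the quasi-likelihood test of edgeR, adjusted by Benjamini-Hochberg over all 18221 genes tested, was under 0.05, and each adjusted p below is of that kind. By that rule 11.2% of all genes were called higher and 11.7% lower in KO. After TMM 49.0% of the calls were higher, and on library totals without TMM 63.0% were. Stk38 stood at 50.2 ± 2.31 CPM in KO and 76.7 ± 3.24 CPM in WT (SD, n = 3 each), so its mRNA was reduced and still read. Markers of other cells differed as well. Of 16 macrophage markers 14 were called higher and all 16 were read, with summed levels of 1029 to 1133 CPM in KO and 405 to 530.1 CPM in WT. Of 6 tested adipocyte markers 5 were called lower (128 to 137 CPM summed in KO, 270.5 to 281 in WT), as were 6 of 10 osteoblast markers (51230 to 53780 CPM summed in KO, 70360 to 72130 in WT). Osteoclast markers had 2 of 6 tested called lower and 4 not called, and 3 of the 6 had a log2 change above 0. Their summed level was lower (269 to 276 CPM in KO, 488 to 491 in WT), the other way from the sum of the macrophage markers. Endothelial markers had 3 of 5 called lower (6.85 to 8.06 CPM summed in KO, 13.5 to 13.7 in WT) and muscle markers 1 of 6 (7.1 to 8.68 CPM summed in KO, 10.5 to 11.99 in WT). Of the osteoblast markers, Bglap, an osteocalcin gene, was barely read, at 0.39 ± 0.182 CPM in KO and 0.733 ± 0.332 CPM in WT. The part of any of these cells in the values below was not tested, and in whole cultures fewer cells of a type and less RNA per cell cannot be told apart.

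Among the 37 genes, 30 had a log2 change above 0 and 7 below 0, and Trp53 itself was at nearly the same level in both genotypes. All 37 genes passed the count filter. Of them 23 were called higher, 3 lower and 11 neither way, where 11.2% of all genes were called higher and 11.7% lower. The median log2 KO over WT was 0.36 over the 37 genes and 0.00 over all genes tested. The KO libraries lay wholly above the WT libraries for 27 of the 37, wholly below for 4, and overlapped for 6, where 38.2% of all genes tested did not overlap, 19.2% lying wholly above and 19.1% wholly below. Because the choice of genes used this contrast, nothing is read from these counts. The highest change was that of Perp and the lowest that of Gadd45a. The 37 genes lie on 18 chromosomes.

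**Figure D1:**
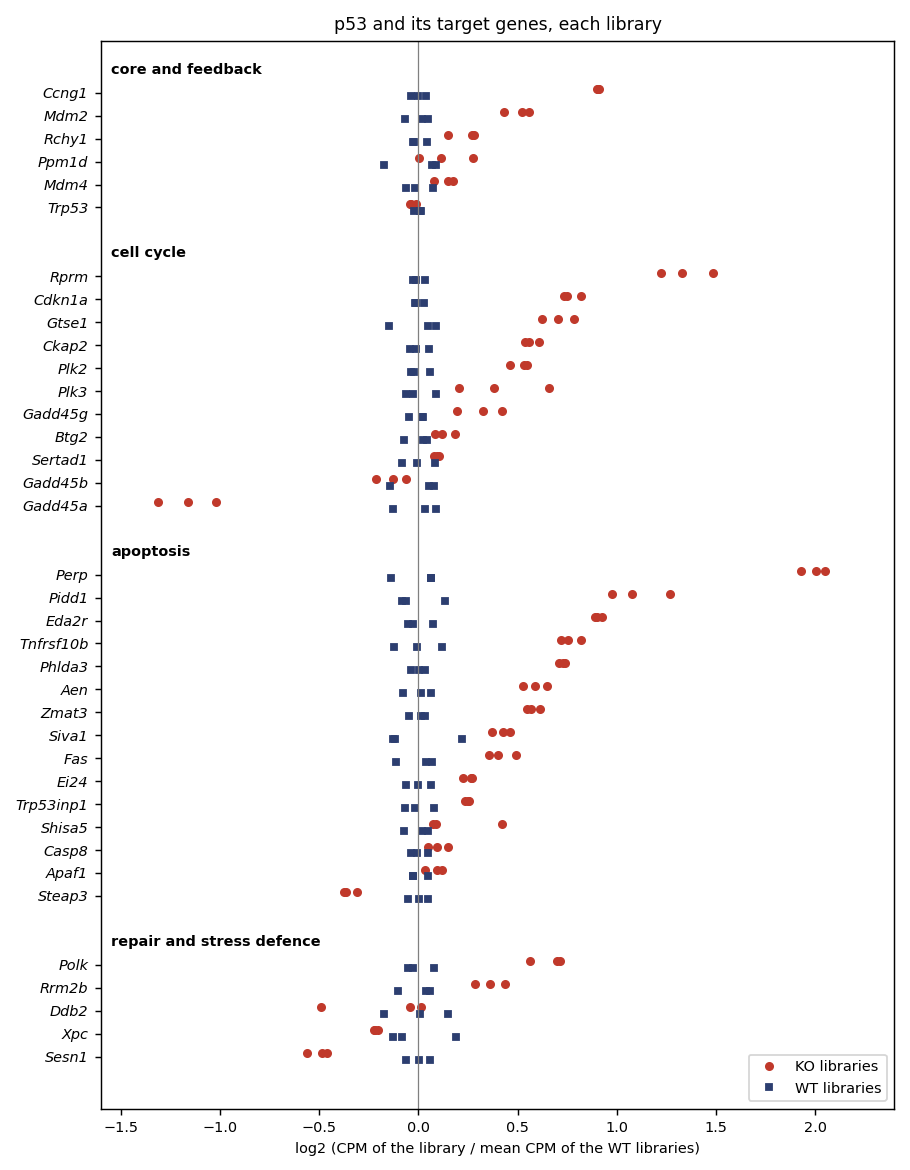
Each point is a library's CPM of a gene over the mean CPM of the WT libraries, on a log2 axis, with KO libraries as red circles above WT libraries as blue squares and genes grouped by role. KO points lie right of all WT points for 27 genes and left of them for Gadd45a, Sesn1, Steap3 and Xpc.

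p53 binds a pair of 10-base copies of its response element. Its best match was sought in the 300 bases around annotated starts, from 250 bases before to 50 after, for the 30 members with a RefSeq promoter window (GRCm38.p6, 44 windows). No window was used for Perp, Zmat3, Tnfrsf10b, Trp53inp1, Rrm2b, Ddb2 and Xpc. The search allowed up to 13 bases between the copies and held the C at position 4 and the G at position 7 of each copy fixed, and the element reads the same on both strands. A pair with at most 2 mismatches was found in 6 of the 44 windows (13.6%) and in 4.09% of all 32851 windows, and a pair with none in 1 window (2.27%) and in 0.0731% of all. Those 6 windows are printed because they hold the matched letters, in capitals, and because 4 of the genes were higher and 2 lower in KO. Each runs from 250 bases before the start up to the start, or for Gtse1 to the end of the pair. A match is a description of letters and not a shown binding site. Response elements are also known outside such windows, such as those in introns of Mdm2 and Gadd45a.
Cdkn1a (chr17:29090729-29090978, plus strand, 0 mismatches, pair starting 73 bases before the start): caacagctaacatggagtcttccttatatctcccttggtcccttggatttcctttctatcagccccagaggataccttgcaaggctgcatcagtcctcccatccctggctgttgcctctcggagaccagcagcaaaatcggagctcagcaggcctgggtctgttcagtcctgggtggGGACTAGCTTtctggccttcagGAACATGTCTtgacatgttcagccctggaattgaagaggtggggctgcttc
Ccng1 (chr11:40755287-40755536, minus strand, 1 mismatch, pair starting 195 bases before the start): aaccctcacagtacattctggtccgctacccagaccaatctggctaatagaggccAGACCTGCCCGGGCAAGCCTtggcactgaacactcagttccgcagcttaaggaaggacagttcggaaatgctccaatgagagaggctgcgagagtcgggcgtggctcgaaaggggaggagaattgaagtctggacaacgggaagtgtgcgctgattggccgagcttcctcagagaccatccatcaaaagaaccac
Gtse1 (chr15:85859696-85859964, plus strand, 1 mismatch, pair starting 1 base before the start): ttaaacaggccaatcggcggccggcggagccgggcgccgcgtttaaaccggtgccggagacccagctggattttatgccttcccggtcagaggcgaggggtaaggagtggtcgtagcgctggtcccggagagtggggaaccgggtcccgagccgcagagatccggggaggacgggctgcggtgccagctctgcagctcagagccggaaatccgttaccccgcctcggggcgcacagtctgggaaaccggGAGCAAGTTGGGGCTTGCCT
Ckap2 (chr8:22185820-22186069, minus strand, 2 mismatches, pair starting 203 bases before the start): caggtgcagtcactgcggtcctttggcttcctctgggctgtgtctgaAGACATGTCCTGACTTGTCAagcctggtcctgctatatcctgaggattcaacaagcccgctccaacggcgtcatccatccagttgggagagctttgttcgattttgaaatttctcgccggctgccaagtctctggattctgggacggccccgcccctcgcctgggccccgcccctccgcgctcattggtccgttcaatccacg
Gadd45a (chr6:67037408-67037657, minus strand, 2 mismatches, pair starting 56 bases before the start): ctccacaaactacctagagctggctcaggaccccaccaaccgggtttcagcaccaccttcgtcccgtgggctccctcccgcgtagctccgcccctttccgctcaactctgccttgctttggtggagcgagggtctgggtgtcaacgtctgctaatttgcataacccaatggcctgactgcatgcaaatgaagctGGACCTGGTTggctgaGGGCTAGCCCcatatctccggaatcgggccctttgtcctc
Sesn1 (chr10:41887189-41887438, plus strand, 2 mismatches, pair starting 186 bases before the start): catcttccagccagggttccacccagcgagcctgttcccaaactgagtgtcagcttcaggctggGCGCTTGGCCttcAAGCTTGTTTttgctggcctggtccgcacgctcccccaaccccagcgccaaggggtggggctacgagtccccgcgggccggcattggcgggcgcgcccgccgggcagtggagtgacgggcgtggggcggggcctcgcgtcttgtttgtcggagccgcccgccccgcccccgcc

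Cdkn1a, Gtse1 and Sesn1 each have a further annotated start, whose window held no such pair. For Cdkn1a that window lies downstream and begins at 29093519, where the printed one begins at 29090729. The distance printed for Cdkn1a is thus from the upstream start. Only the best match of each window is in capitals. In the printed Cdkn1a window, tgacatgttc right after the second copy forms with it a further pair without a gap, within the 2 mismatches allowed. The windows of genes in both directions of change therefore held matches. The cell cycle homology region of genes repressed through the DREAM complex, TTTGAA on either strand, was in 5 of the 44 windows (11.4%), one of them that of Ckap2, and in 17.9% of all windows.

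The first group is p53 with its regulators and feedback genes. Trp53 (ENSMUSG00000059552, chromosome 11) had 113.5, 113.7 and 116 CPM in the KO libraries and 118, 115 and 117 CPM in the WT libraries. These groups overlapped, and the log2 change of -0.03 ± 0.03 ran from -0.04 to 0.02 over the 14 alternative analyses, so its sign depended on the setting. A pseudogene, Trp53-ps, held 583 reads in all 6 libraries together, where Trp53 held 47828, and how reads that fit both were counted was not given. Mdm2, the ubiquitin ligase that degrades p53 and is itself induced by it, had 95.0, 89.2 and 97.3 CPM in KO, against 68.4, 66.9 and 63.1 CPM in WT. All 3 KO libraries lay above all 3 WT libraries, and the log2 change was 0.51 ± 0.04. Its relative Mdm4, which blocks p53 without degrading it, had 75.03, 78.9 and 80.0 CPM in KO and 70.1, 68.1 and 74.8 CPM in WT. The KO libraries were barely above, at 0.13 ± 0.04, and Mdm4 was not called after TMM but was in 6 of the 14 alternatives.

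Ccng1, which encodes cyclin G1, a partner of protein phosphatase 2A that activates Mdm2, was the most abundant member by FPKM. It had 544, 540.4 and 542 CPM in the KO libraries, against 289, 282 and 297 CPM in the WT libraries. The groups stood far apart next to their spread, with a coefficient of variation of 0.319% in KO and 2.53% in WT, and the log2 change was 0.91 ± 0.03. Rchy1, which encodes the ubiquitin ligase Pirh2, also acting on p53, was higher at 0.24 ± 0.05. Rchy1 is overlapped by ENSMUSG00000121865 on the opposite strand, with 7.9% as many reads, and by Gm43039 on the same strand, with 1.59%. Ppm1d, the phosphatase Wip1 that switches the damage response off, stood at 17.2 ± 1.66 CPM in KO and 15.6 ± 1.51 CPM in WT (SD, n = 3 each). Its groups overlapped and it was not called.

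The second group holds 11 genes that act on the cell cycle. Of them 7 were called higher and 1 lower, where 11.2% and 11.7% of all genes were. As some members were picked on this contrast, nothing is read from the count. Cdkn1a (ENSMUSG00000023067), which encodes p21, the inhibitor of cyclin-dependent kinases through which p53 halts the cycle, had 431, 453 and 427 CPM in KO and 254.5, 254 and 262 CPM in WT. The lowest KO library lay far above the highest WT library, and the log2 change was 0.77 ± 0.03. Rprm, which encodes reprimo, a membrane protein known for arrest in G2, was read at a low level, with 4.71, 3.92 and 4.22 CPM in KO and 1.65, 1.72 and 1.67 CPM in WT. The change of 1.35 ± 0.16 was the second largest among the 37, and the groups did not overlap.

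The GADD45 proteins are small stress sensors that bind p21, PCNA and the kinase MEKK4, and the 3 paralogs differed in direction. Gadd45a, the classical p53 target of the family, had 14.5, 16.0 and 13.03 CPM in KO, against 34.4, 29.6 and 33.1 CPM in WT. No other member was as much lower, at -1.16 ± 0.09. Gadd45b, known to be induced by TGF-beta and NF-kappaB, stood at 29.7 ± 1.57 CPM in KO and 32.6 ± 2.7 CPM in WT with overlapping groups, and was not called. Gadd45g, which cytokines induce, stood at 50.02 ± 3.91 CPM in KO and 40.2 ± 1.11 CPM in WT (0.32 ± 0.06). An antisense gene, E230016M11Rik, overlaps Gadd45a and held 4.86% as many reads.

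Gtse1 and Ckap2 encode microtubule-linked proteins that peak in G2 and mitosis. Gtse1, which also carries p53 out of the nucleus, had 61.2, 57.9 and 54.8 CPM in KO and 32.0, 36.7 and 37.8 CPM in WT. Its log2 change was 0.71 ± 0.07 and its groups did not overlap. Ckap2 had 70.2, 72.6 and 69.1 CPM in KO and 46.3, 47.2 and 49.4 CPM in WT, a change of 0.57 ± 0.04. Plk2, a polo-like kinase of centriole duplication and stress, had 53.7, 56.5 and 57.0 CPM in KO and 38.0, 40.6 and 38.4 CPM in WT. Its change was 0.51 ± 0.05, again with no overlap. Plk3, a related kinase, stood at 9.32 ± 1.49 CPM in KO and 6.93 ± 0.39 CPM in WT. It was called, but not when any 1 of KO replicates 1 and 2 or the 3 WT replicates was left out, and its log2 change ran from 0.29 to 0.53 over the alternatives. Btg2, an antiproliferative factor that speeds mRNA decay (0.13 ± 0.05), and Sertad1, which acts with cyclin D and E2F (0.09 ± 0.06), were not called.

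**Figure D2:**
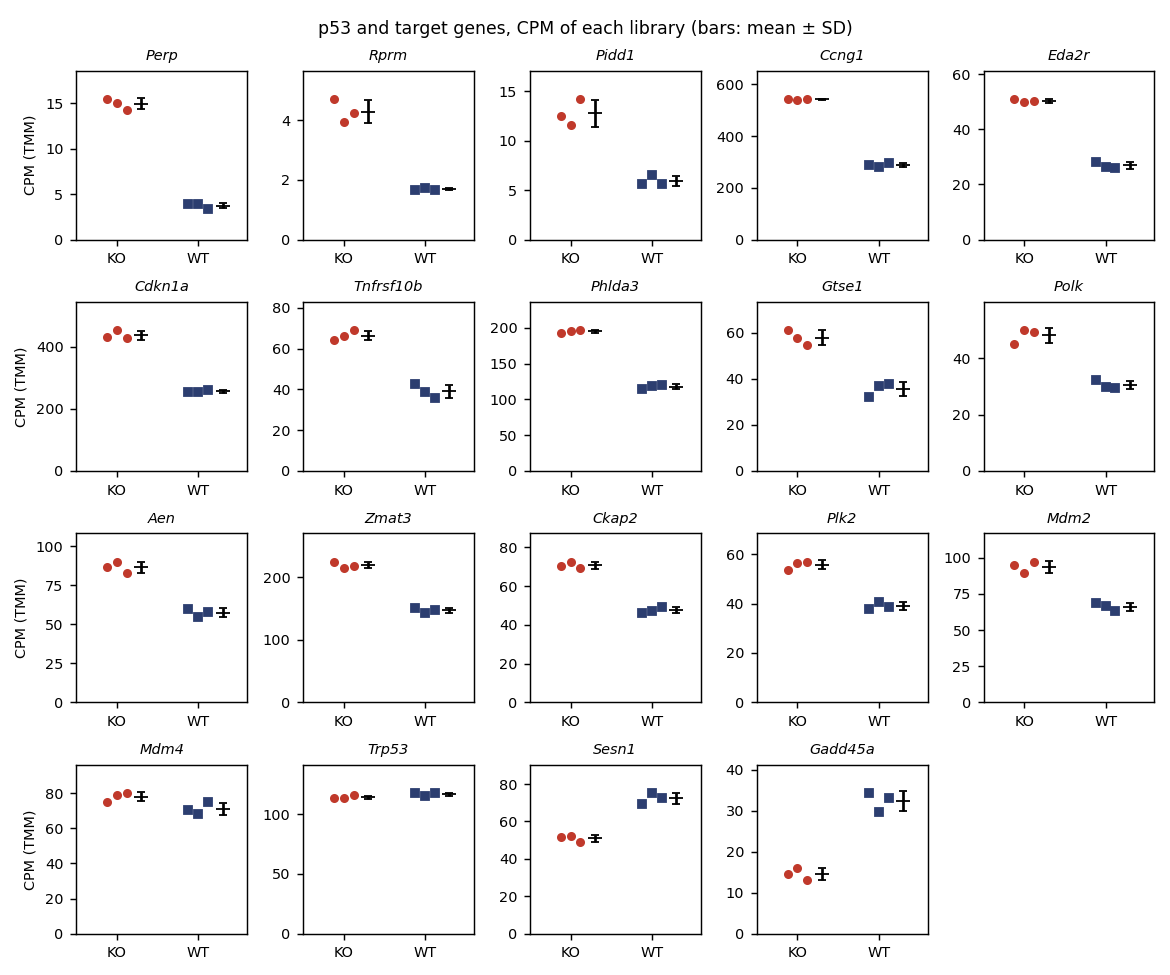
CPM of each KO library (red circles, left) and WT library (blue squares, right) for the 19 members with values given for each library, in order of log2 change, with the mean ± SD as a black bar and axes from 0. KO libraries are furthest above WT for Perp (log2 1.99) and below WT for Sesn1 and Gadd45a, while Trp53 and Mdm4 differ little.

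The largest group, 15 genes of cell death, had 11 called higher and 1 lower, where 11.2% and 11.7% of all genes were. Some members were picked on this contrast, so nothing is read from the count. Perp, a tetraspan protein of cell junctions that p53 induces in dying cells, had 15.5, 15.04 and 14.2 CPM in KO and 3.91, 3.91 and 3.4 CPM in WT. It differed most among the 37, at 1.99 ± 0.10. Pidd1, which assembles the platform that activates caspase-2, had 12.5, 11.6 and 14.2 CPM in KO and 5.66, 6.49 and 5.57 CPM in WT. KO was above WT in each library, at 1.11 ± 0.11. 

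The members include 3 receptors of the TNF receptor family, each called higher in KO, where 11.2% of all genes were. Eda2r, the receptor of ectodysplasin A2 on the X chromosome, had 51.0, 49.7 and 50.2 CPM in KO, against 28.3, 26.4 and 25.9 CPM in WT, a change of 0.91 ± 0.05. Tnfrsf10b, the TRAIL death receptor, had 64.2, 65.9 and 69.0 CPM in KO and 42.4, 38.9 and 35.8 CPM in WT (0.77 ± 0.06). For both receptors the lowest KO library lay above the highest WT library. Fas, the receptor of Fas ligand, was less changed, with 23.7 ± 1.16 CPM in KO and 17.7 ± 1.19 CPM in WT (0.42 ± 0.07). Casp8, the initiator caspase that Fas and the TRAIL receptor recruit (0.10 ± 0.05), and Apaf1, which forms the apoptosome of the mitochondrial pathway (0.08 ± 0.04), were not called.

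Phlda3 and Zmat3 are among the most regular p53 targets in mouse and human cells. Phlda3, which binds membrane lipids and so competes with the kinase AKT, had 193, 195.2 and 197 CPM in KO, against 115, 118 and 121 CPM in WT. Its groups did not overlap, and its change was 0.73 ± 0.03. Zmat3, an RNA-binding protein that steers splicing and mRNA stability, had 225, 215 and 217 CPM in KO and 150.4, 142 and 148 CPM in WT (0.58 ± 0.03). Aen, a nuclease that cuts DNA in dying cells, had 86.5, 90.2 and 83.1 CPM in KO and 60.1, 54.5 and 58.0 CPM in WT (0.59 ± 0.05). In all 3 genes the lowest KO library lay above the highest WT library.

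Smaller differences were seen in Siva1, a partner of the receptor CD27 (0.42 ± 0.10), in the endoplasmic reticulum protein gene Ei24 (0.25 ± 0.04) and in Trp53inp1, a stress protein that promotes autophagy (0.25 ± 0.04), all called higher. Steap3, an endosomal reductase of iron, went the other way, at 44.1 ± 1.04 CPM in KO and 56.2 ± 2.02 CPM in WT (-0.35 ± 0.05). Shisa5, a protein of the endoplasmic reticulum and nuclear membrane, stood at 218 ± 30.9 CPM in KO and 189 ± 8.08 CPM in WT (SD, n = 3 each) and was not called (0.21 ± 0.08).

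The last group, 5 genes of DNA repair and stress defence, was mixed. Polk, a DNA polymerase that copies past damaged bases, had 45.1, 49.99 and 49.4 CPM in KO, against 32.2, 29.9 and 29.4 CPM in WT (0.66 ± 0.06). Sesn1, a sestrin that restrains mTORC1 and is also a target of FOXO factors, had 51.5, 52.4 and 48.9 CPM in KO and 69.2, 75.2 and 72.4 CPM in WT (-0.50 ± 0.05). Both genes had groups that did not overlap, in opposite directions. Xpc and Ddb2, which recognise DNA damage in nucleotide excision repair, were not called (-0.22 ± 0.08 and -0.16 ± 0.17). Rrm2b, the p53-induced subunit of ribonucleotide reductase, was called at 0.36 ± 0.09 but lost its call without KO replicate 3. Its value and that of Ddb2 are uncertain, since Gm3362 overlaps Rrm2b on the same strand with 262% as many reads and Acp2 overlaps Ddb2 on the opposite strand with 1850% as many, and whether counting used strand was not given.

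By FPKM the 37 genes ranged from 1.05 for Rrm2b to 112 for Ccng1, with a median of 11.7, against a median of 2.9 over all genes tested. Ccng1, Phlda3 (94.8 FPKM) and Cdkn1a (92.4 FPKM) led, followed by Shisa5 (58.1 FPKM), Gadd45g (36.3 FPKM) and Trp53 (26.9 FPKM). The median coefficient of variation of CPM between replicates was 3.56% in KO and 4.66% in WT for the 37 genes, and 7.21% in KO and 7.38% in WT for all genes tested. In the annotation deposited with the table, 26 of the 37 carry the KEGG term for p53 signalling.

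Other genes reported as p53 targets, mostly in human cells, were counted from a list of 118 that excludes the 37. Of 113 tested, 46 rose and 14 fell in KO, 40.7% and 12.4%, where 11.2% and 11.7% of all genes did so. The other 53 were not called. The list was chosen with earlier results of these data known, so these shares are a description. Their median log2 change was 0.12. The 5 that rose with the lowest p were Psrc1, Ptpn14, Slc19a2, Inka2 and Bax. Psrc1, a spindle protein, stood at 93.8 ± 4.29 CPM in KO and 49.9 ± 2.66 CPM in WT (0.91 ± 0.05, edgeR adjusted p = 5.94e-07). Bax, which opens the outer mitochondrial membrane in apoptosis, had 109, 110.0 and 114 CPM in KO and 81.4, 82.4 and 77.0 CPM in WT (0.47 ± 0.04, edgeR adjusted p = 7.76e-06). The phosphatase Ptpn14 (0.49 ± 0.03), the thiamine transporter Slc19a2 (0.87 ± 0.05) and the PAK4 inhibitor Inka2 (0.98 ± 0.07) had edgeR adjusted p = 1.34e-06, 1.43e-06 and 3.55e-06 in that order. In these 5 genes each KO library lay above each WT library.

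Of the 14 that fell, Igfbp3, which binds insulin-like growth factors, had the lowest p, at 241 ± 8.46 CPM in KO and 420 ± 11.0 CPM in WT (-0.80 ± 0.03, edgeR adjusted p = 6.17e-08). The heparan sulfate sulfatase Sulf2 (-0.37 ± 0.03), the mTORC1 brake Tsc2 (-0.38 ± 0.03), the chemokine Cx3cl1 (-0.31 ± 0.03) and the Ral activator Ralgds (-0.39 ± 0.05) followed, with edgeR adjusted p = 1.18e-05, 1.42e-05, 6.69e-05 and 2.51e-04. Chosen after their values were seen, the BH3-only genes Pmaip1 and Bbc3, which encode the killers NOXA and PUMA, also rose, at 1.23 ± 0.14 and 0.26 ± 0.08 (edgeR adjusted p = 9.33e-05 and 0.0304). So did the stress cytokine Gdf15, at 6.39 ± 0.408 CPM in KO and 3.02 ± 0.95 CPM in WT (edgeR adjusted p = 0.00323). Fdxr (0.05 ± 0.14), Tigar (0.08 ± 0.16) and Dram1 (0.07 ± 0.06), also chosen after their values were seen, were not called. The list also holds Laptm5 and Inpp5d, known chiefly from blood cells, which rose by 1.19 ± 0.12 and 1.18 ± 0.11 beside the macrophage markers (edgeR adjusted p = 5.42e-05 and 3.61e-05). Of the 46 tested genes that carry the deposited KEGG p53 term and are not among the 37, 18 rose and 5 fell (39.1% and 10.9%), and the 2 lists share 12 genes, among them Bax, Igfbp3 and Tsc2.

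**Figure D3:**
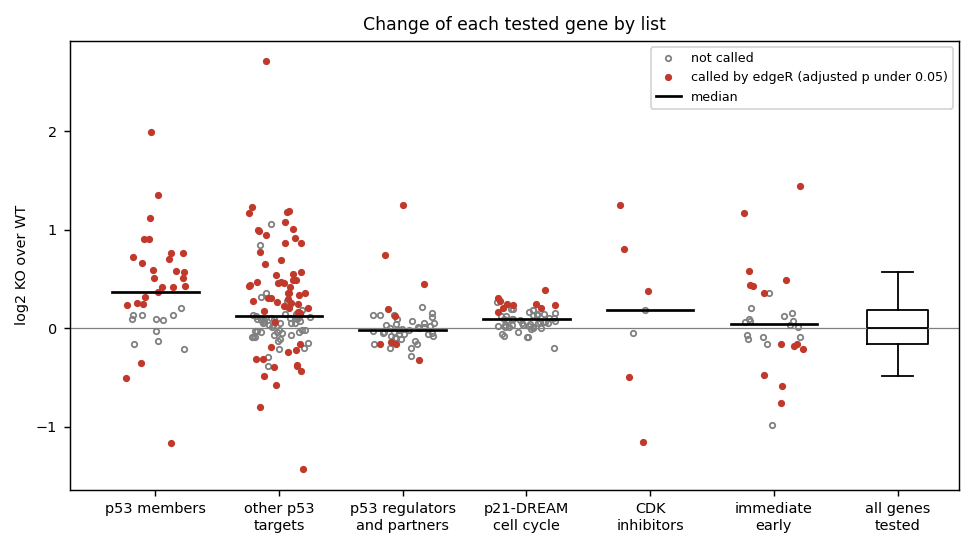
Log2 KO over WT of each tested gene of 6 lists, filled red where called and open grey where not, with the list's median as a black line; the box spans the quartiles of all genes tested and its whiskers the range from the 10th to the 90th percentile. The median of the 37 p53 genes is 0.36, and the medians of the other lists lie between -0.02 and 0.18.

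Regulators and partners of p53 did not stand out in number. Of 49 tested, 5 rose and 4 fell (10.2% and 8.16%), where 11.2% and 11.7% of all genes did so, and 40 were not called. Cdkn2a, whose transcripts encode both the CDK inhibitor p16 and ARF, which keeps Mdm2 from p53, rose most, at 18.0 ± 1.12 CPM in KO and 7.59 ± 0.856 CPM in WT (1.25 ± 0.10, edgeR adjusted p = 7.32e-06). Counts per gene do not separate its products. The deubiquitinase Usp2, which stabilises Mdm2 (0.75 ± 0.09), and the DNA damage kinase Chek2 (0.45 ± 0.10) rose with edgeR adjusted p = 1.39e-04 and 0.0105. The deacetylase Hdac1 (0.12 ± 0.04) also rose, and the methyltransferase Setd7 (-0.33 ± 0.03), Trim28 (-0.16 ± 0.04) and the acetyltransferases Ep300 (-0.14 ± 0.04) and Crebbp (-0.16 ± 0.05) fell. Their edgeR adjusted p = 0.0451, 1.38e-05, 0.00906, 0.0245 and 0.0343 in that order. Of these, Hdac1, Ep300 and Crebbp each lost its call in at least 6 of the 14 alternatives, among them leaving out single libraries. The number that rose was 3 without KO replicate 3 or without WT replicate 1, and the number that fell was 2 without KO replicate 2.

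p21 is known to repress cell cycle genes through the DREAM complex, so 55 such genes were counted beside Cdkn1a. None fell and 10 rose (0% and 18.2% of those tested), where 11.7% and 11.2% of all genes did so. Their median log2 change was 0.10, with values above 0 for 48 of the 55. The 5 of lowest p were the anillin gene Anln (0.25 ± 0.03), the anaphase activator Cdc20 (0.28 ± 0.04), the ribonucleotide reductase subunit Rrm2 (0.23 ± 0.03), the ubiquitin-conjugating enzyme Ube2c (0.39 ± 0.06) and the spindle protein Tpx2 (0.23 ± 0.04). Their edgeR adjusted p = 5.23e-04, 6.72e-04, 7.31e-04, 0.00103 and 0.00179. On library totals without TMM 20 rose and none fell. The p21 protein was not measured in these libraries, and the part of Cdkn1a in the levels of these genes was not tested.

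The other CDK inhibitor genes went both ways. Cdkn2b, which encodes p15 beside Cdkn2a, had 79.3, 79.9 and 84.0 CPM in KO and 45.6, 44.2 and 49.9 CPM in WT (0.80 ± 0.05, edgeR adjusted p = 1.69e-06). Cdkn1c, the imprinted gene of p57, had 88.4, 95.6 and 89.3 CPM in KO and 192, 208 and 208.5 CPM in WT (-1.15 ± 0.04, edgeR adjusted p = 3.85e-08). Cdkn1b, the gene of p27, fell as well (-0.50 ± 0.06, edgeR adjusted p = 2.25e-04). So the members of the Cip/Kip family, Cdkn1a, Cdkn1b and Cdkn1c, did not share a direction. Cdkn3, a phosphatase of CDKs, rose (0.38 ± 0.09, edgeR adjusted p = 0.0127), while Cdkn2c (-0.05 ± 0.07) and Cdkn2d (0.18 ± 0.07) were not called (edgeR adjusted p = 0.694 and 0.0919).

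**Figure D4:**
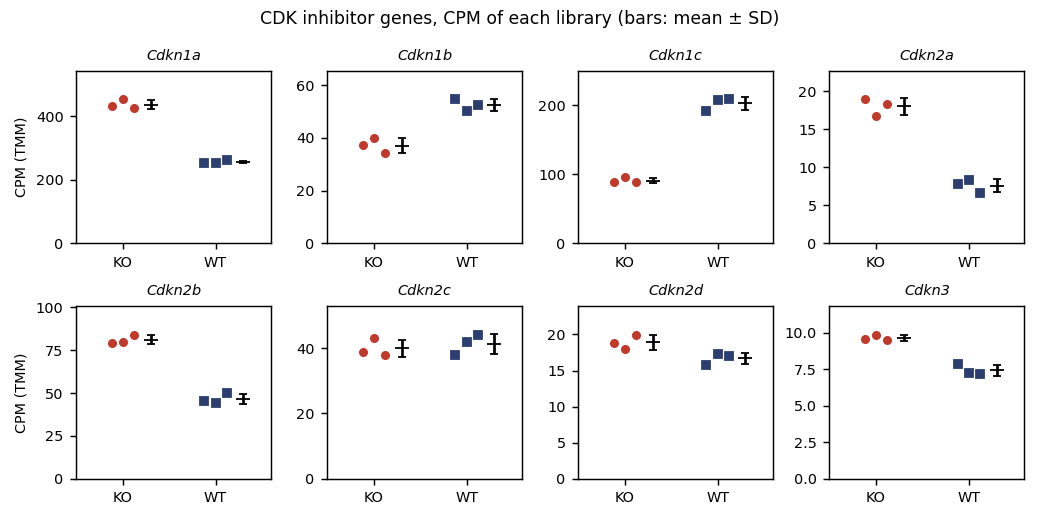
CPM of each KO library (red circles, left) and WT library (blue squares, right) for Cdkn1a and the 7 other CDK inhibitor genes, with the mean ± SD as a black bar and axes from 0. Cdkn1a, Cdkn2a, Cdkn2b and Cdkn3 are higher in all KO libraries, and Cdkn1b and Cdkn1c are lower in all of them.

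Several members, among them Btg2, Gadd45b, Plk2 and Plk3, are also immediate early genes, which serum or handling induces quickly. Of 30 other immediate early genes 7 rose and 7 fell, 23.3% each, where 11.2% and 11.7% of all genes did so. Their median log2 change was 0.05. Socs3 (1.44 ± 0.06), Ccn1 (0.49 ± 0.03), Junb (0.58 ± 0.07), Dusp1 (0.44 ± 0.07) and Fosl1 (1.17 ± 0.19) rose, with edgeR adjusted p = 6.83e-08, 6.33e-07, 1.63e-04, 0.00103 and 0.0014. Nr4a2 (-0.76 ± 0.12), Fosl2 (-0.18 ± 0.03), Jund (-0.21 ± 0.04), Nr4a1 (-0.58 ± 0.11) and Klf4 (-0.16 ± 0.05) fell, with edgeR adjusted p = 0.00106, 0.00119, 0.00369, 0.00382 and 0.0331. Only 4 fell when KO replicate 2, KO replicate 3 or WT replicate 1 was left out. Klf4 lost its call in most alternatives.

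Cdkn1a is the only member on chromosome 17, where the knocked-out gene lies. Stk38 spans 29189854 to 29226969 and Cdkn1a 29309950 to 29319701 in the deposited coordinates, 83.0 kb apart, and the mouse build of these coordinates is not named in the sources used here. Between them or at the promoter of Cdkn1a lie Srsf3, a splicing factor gene, and the p53-linked noncoding RNAs Trp53cor1 (lincRNA-p21) and Dino. Srsf3 was lower, at 182 ± 2.87 CPM in KO and 196 ± 4.65 CPM in WT (-0.11 ± 0.03, edgeR adjusted p = 0.0191). Trp53cor1 had 3.55, 4.9 and 4.29 CPM in KO and 3.19, 2.67 and 2.27 CPM in WT (0.65 ± 0.19, edgeR adjusted p = 0.0308). Dino, which overlaps Cdkn1a on the other strand, stood at 1.36 ± 0.353 CPM in KO and 0.978 ± 0.0948 CPM in WT and was not called (0.48 ± 0.27, edgeR adjusted p = 0.259).

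Genes on the other side of Stk38 also differed. Kctd20, next to it, fell by 0.20 on the log2 scale (± 0.03, edgeR adjusted p = 0.00113), and the kinase gene Mapk13 rose by 1.32 ± 0.12 (edgeR adjusted p = 2.21e-05). Further out, Scube3 (-0.81 ± 0.06) and Fkbp5 (-0.42 ± 0.08) were lower, with edgeR adjusted p = 3.58e-06 and 0.00435. Within 500 kb of Stk38, itself included, 8 of 21 tested genes were called (38.1%), and within 1000 kb 12 of 45 (26.7%), where 22.9% of all genes tested were. Of those 12, 5 were higher and 7 lower. The other 22 members called higher lie on other chromosomes, which says nothing about the level of Cdkn1a. The part of the knocked-out locus in the level of Cdkn1a was not tested. Genes of this region other than Stk38, Cdkn1a and Trp53cor1 were chosen after their values were seen.

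**Figure D5:**
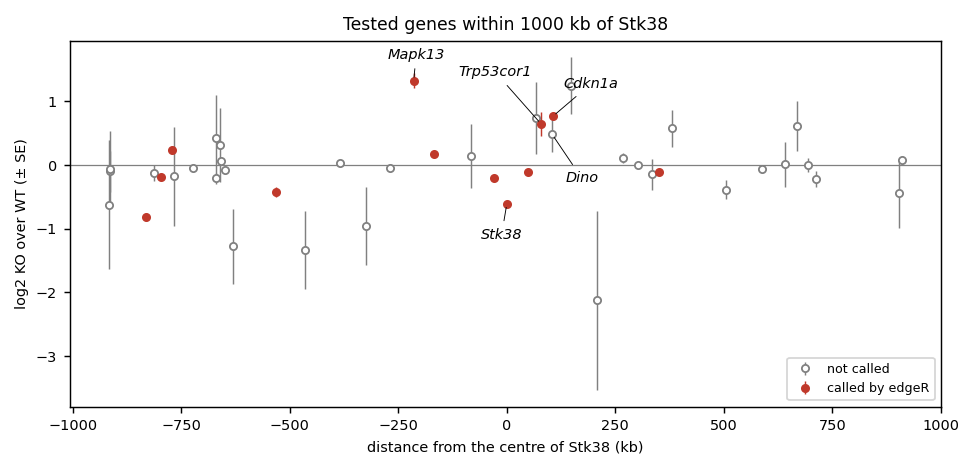
Log2 KO over WT (± SE) of the 45 tested genes within 1000 kb of Stk38 by distance from its centre, filled red where called by edgeR and open grey where not. Stk38, Scube3 and Fkbp5 are lower and Cdkn1a, Trp53cor1 and Mapk13 are higher in KO, while most other genes lie near 0 or have wide errors.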

How the data were processed

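Each library's group and number came from its label. The deposited table held 29018 mouse genes with count and FPKM columns for each library. Per the file headers, the count columns are reads or fragments per gene, which the authors did not normalize, and the FPKM columns were scaled by the authors to transcript length and library total. The submitters' processing notes name cutadapt 1.9, HISAT2 2.0.4 and StringTie 1.3.4d. The notes list a human build although all identifiers are of mouse, and of 27342 identifiers shared with GENCODE M21 (GRCm38) 539 (1.97%) had the same start and end there.

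Counts were tested with edgeR 4.0.16 (TMM, filterByExpr, quasi-likelihood, two-sided, no covariate, Benjamini-Hochberg over 18221 genes) in R 4.3.3. Alternatives used DESeq2 1.42.0 and limma 3.58.1. Each SE was derived from the log2 change and its F statistic. The common biological coefficient of variation was 12.6%. Between replicates of a group, the median chi-square per gene, a squared difference, was 5.69 to 6.66 times the median expected of counting noise. That is more than sampling noise, so no replicate was taken for a repeat of another. The errors cover only the spread between these libraries.

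The members and the gene lists were chosen with earlier results of these data known. Among the members, values in each library are given for Trp53, Mdm2, Mdm4, Cdkn1a and Ccng1 and for those with an absolute log2 change of at least 0.5 and a mean of at least 1 CPM. Of each other list up to 5 called genes of lowest p per direction are named, except 1 gene that is not reported here. On simulated data with 200 changed genes, edgeR called 85% of the genes given a 2-fold change and 67% of the genes given a 1.5-fold change, and 10.1% of its calls were false. The changed genes there had a mean count of at least 50. In these data 4179 genes were called, so those shares may not carry over.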

Additional observations from a re-analysis of the deposited data

How the results depend on the processing

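The analysis was repeated in 14 ways: edgeR on library totals without TMM, with DESeq2's size factors, without a count filter and with a replicate block, DESeq2, limma on log2(FPKM + 1), on log2(FPKM + 0.1) and on log2(FPKM + 1) without a filter, and without each library. Of the 26 called p53 members, 24 kept their call in all of them, Plk3 and Rrm2b being the exceptions, and no called member changed sign. Of the 11 uncalled members, 7 were uncalled in all of them, the exceptions being Mdm4, Btg2, Casp8 and Shisa5. The number of members called higher ran from 21 to 26 and the number called lower was 3 throughout. Other p53 targets called higher ran from 39 to 49, and from 37 to 40 without a library.

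Genes called lower in KO numbered 1267, 1254 and 1246 in the 3 limma analyses, against 2131 in edgeR, and 1712 to 1893 without a library. Regulators and partners called higher were 10 on library totals, against 5, and 3 to 5 without a library. Those called lower were 2 on library totals or without a count filter and 1 in each limma analysis, against 4, and 2 to 4 without a library. The cell cycle genes called higher were 20 on library totals and 17 in limma on log2(FPKM + 1) and on log2(FPKM + 0.1), against 10. Immediate early genes called lower were 4 on library totals, 4 without a count filter and 2 in limma without a filter, against 7, and 4 to 5 without a library. The cause of these differences was not tested.

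Samples with the same replicate number did not deviate together (correlations -0.04, -0.03 and -0.01). The labels do not say whether they were handled together, and these values cannot show that they were not. With a replicate block, 1912 genes were called higher and 1976 lower, and 4 immediate early genes lower. The p-values rest on 3 libraries a group.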
